A study of Mus musculus with 4 samples.

Results

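Snhg11, small nucleolar RNA host gene 11, was examined in AGO2 eCLIP data from whole brain of newborn mice. Every deposited region whose midpoint lay inside the gene on its own strand was taken, by exon and intron of the GENCODE M21 annotation on mm10. That gave 12 of 86106 clusters of the Fmr1 knockout-labelled library, 8 of 46860 clusters of the wild-type library, and 8 of 46862 regions of a series table that sets both libraries side by side. In all, 28 of 179828 regions belonged to Snhg11, and 0 regions lay on the opposite strand. The gene was chosen for its strong region in the series table, so its values there are a description and no test was run on them.

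The study used 4 libraries, an AGO2 immunoprecipitate (IP) and a size-matched input for each genotype, with 1 IP per genotype. The knockout-labelled pair came from C57BL/6 mice labelled Fmr1 ko, whose allele the labels do not name. The wild-type pair came from C57BL/6 mice labelled Jax WT. Both pairs were whole brain at postnatal day 0, frozen and immunoprecipitated with the anti-AGO2 antibody EAG009, and the labels do not say how many animals each library held. Fmr1 encodes FMRP, the RNA-binding protein lost in fragile X syndrome. eCLIP crosslinks a protein to the RNA it touches in the tissue, pulls the protein down, and sequences the attached RNA fragments. With 1 IP of each genotype, every difference given here is one between 2 libraries, and genotype cannot be told apart from library.

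The files carry no library totals, but the totals relative to each other were recovered from the scores. The knockout-labelled IP held 2.28 times the reads of the wild-type IP. The knockout-labelled input held 1.92 times its IP, and the wild-type input 6.34 times its IP. Fmr1 itself had 5 exonic clusters in the knockout-labelled IP and 2 in the wild-type IP. In its 2 regions of the authors' deposited table, the scores correspond to 3 and 6 reads of the knockout-labelled IP, against 4 and 5 reads of the wild-type IP, so Fmr1 RNA was present in the library labelled knockout and these reads do not check that label. Of the tissue markers looked for, 5 of 5 neuronal and 4 of 4 progenitor genes had an exonic cluster in both IPs, as did 2 of 4 glial genes. Olig2 and Pdgfra did not.

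AGO2 is the Argonaute protein that carries microRNAs to complementary sites in other RNAs, most often in 3' untranslated regions, through the microRNA's seed. Small nucleolar RNA host genes are transcripts whose introns release small nucleolar RNAs, the guides of RNA modification in the nucleolus, while the spliced exons remain as a long RNA. Snhg11 is such a host, known as an abundant RNA of neurons.

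The strongest region lay in the last exon and held no base other than C and T. Its first bases are printed below with the first bases of the knockout-labelled cluster just before it, the run of G in another enriched cluster, and the cluster inside a small nucleolar RNA gene. All are mm10, plus strand, which is the strand of Snhg11. Capitals mark the run of G.
Strongest region, chr2:158383260-158383289: tttctttctttctttctttccttccttcct
Knockout-labelled cluster before it, chr2:158383152-158383181: atggttcctcaggtactttgtaatctcctg
Run of G, chr2:158381359-158381388: agctaggtGGGGGGGGGGGGGcgcatgcct
Cluster in the small nucleolar RNA gene, chr2:158379564-158379590: gtgtgctctggccatacatgatgcagg
The first line shows a repeat of T and C, and the rest of the strongest region was also only T and C, in a less regular order. The other lines are ordinary sequence, apart from the 13 G in a row.

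GENCODE M21 places Snhg11 at chr2:158375638-158386145 on the plus strand and calls it protein coding, with 5 exons, a coding length of 261 bases and a last exon of 5207 bases annotated as 3' untranslated. RefSeq calls the same gene a long non-coding RNA. Of the regions, 11 of 12 knockout-labelled clusters, 8 of 8 wild-type clusters and 8 of 8 regions of the series table were exonic. In each of the 3 tables, 6 lay in the last exon. The remaining knockout-labelled cluster was intronic, in intron 3.

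AGO2 IP over input was described first within each library. Each deposited log2 is the read density of the IP over its own input, scaled to library totals, with the authors' -log10 p beside it. A cluster was counted as enriched when its -log10 p and its log2 both reached 3. None of the 12 knockout-labelled Snhg11 clusters was enriched (0, where 3.08% of all clusters of that library were), against 2 of the 8 wild-type clusters (24.1% of all clusters of that library). When the -log10 p had to reach 5 and the log2 had to reach 4, the counts were 0 of 12 (1.38% of all knockout-labelled clusters) and 1 of 8 (8.62% of all wild-type clusters). The median log2 over the Snhg11 clusters was -0.50 in the knockout-labelled library and 1.59 in the wild-type library. Over all clusters the median was 2.26 in the knockout-labelled library and 4.25 in the wild-type library. Snhg11 clusters therefore sat below the middle of their library in both. In the knockout-labelled library 5 of the 12 Snhg11 clusters were above 0, as were 89.6% of all its clusters. In the wild-type library 6 of 8 were, as were 98.2% of all its clusters.

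**Figure D1:**
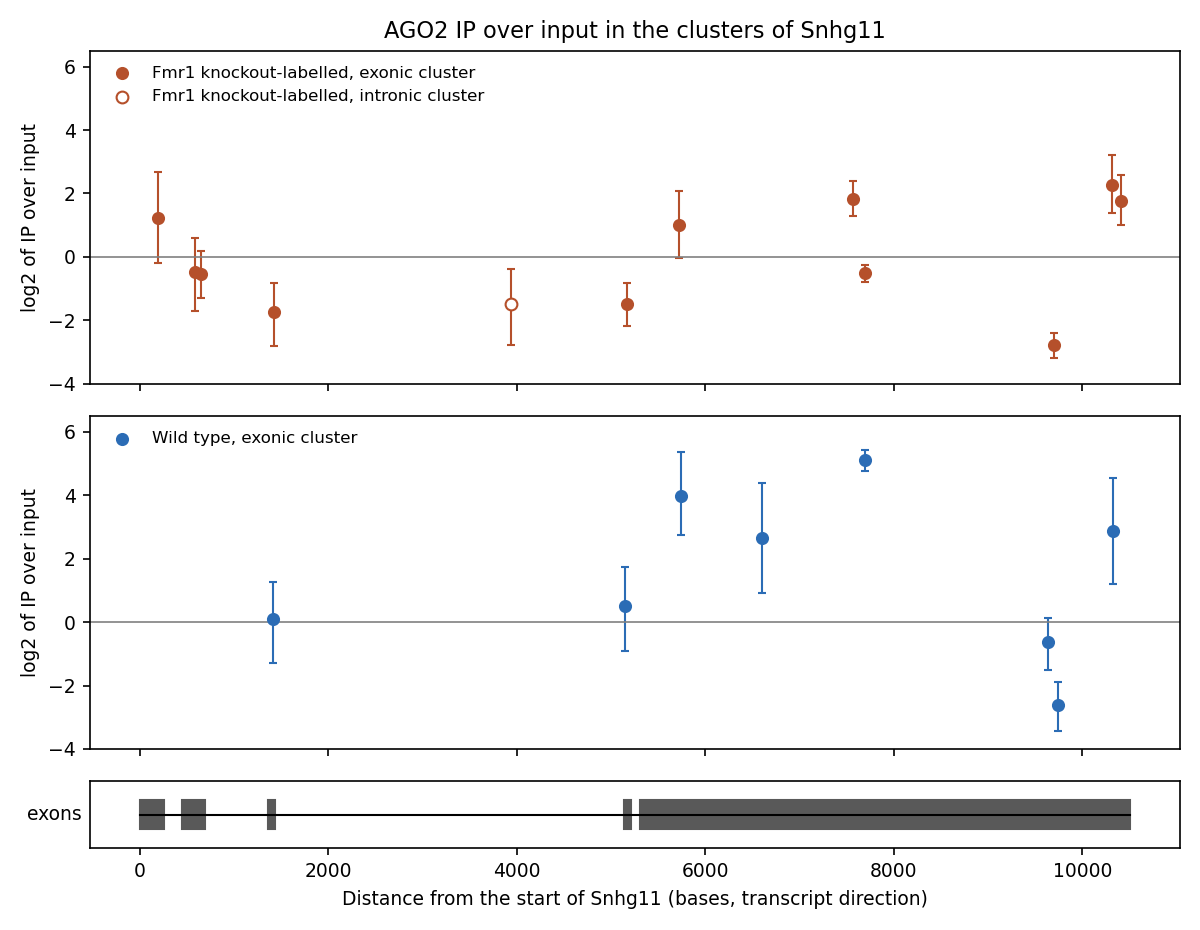
Log2 of AGO2 IP over input (vertical axis) for each Snhg11 cluster, by distance of its midpoint from the start of the gene in bases (horizontal axis), in the Fmr1 knockout-labelled library (upper panel) and the wild-type library (middle panel), above the 5 exons. Bars are 95% intervals for counting error only. The knockout-labelled cluster 7696 bases from the start is at -0.52, and the wild-type cluster at 7693 bases is at 5.10.

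Exons 1 and 2 had clusters only in the knockout-labelled library, whose IP held 2.28 times the reads of the wild-type IP. In exon 1 the knockout-labelled library held a cluster of 11 IP and 9 input reads (log2 1.23). In exon 2 it held a pair of abutting clusters, of 10 IP and 27 input reads (log2 -0.49) and of 22 IP and 61 input reads (log2 -0.53). The wild-type library had no cluster in either exon, and its reads there are not known, as the series table has no region in them. Here and below, where a log2 lies below 0 or a -log10 p is at its ceiling of 400, the reads are the lowest whole numbers that give the deposited ratio, so true reads may be a multiple of them.

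In exon 3 the knockout-labelled cluster held 11 IP and 71 input reads (log2 -1.75), and the wild-type cluster 7 IP and 41 input reads (log2 0.11). Exon 4 gave 23 IP and 122 input reads in the knockout-labelled library (log2 -1.47), against 7 IP and 31 input reads in the wild-type library (log2 0.52). Neither of these coding-exon clusters reached the limits in either library. The wild-type clusters there were short, 7 and 4 bases long, and each held 7 IP reads.

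The last exon carried the enriched clusters. At its near end, knockout-labelled reads gave 18 in the IP and 17 in the input (log2 1.02, -log10 p 1.30), against 20 in the IP and 8 in the input of the wild-type library (log2 3.99, -log10 p 11.3). This wild-type cluster, chr2:158381350-158381415, was the weaker of the enriched pair and held the run of G shown above. Further along, a wild-type cluster of 7 IP and 7 input reads (log2 2.66, -log10 p 2.91) had no knockout-labelled cluster over it.

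Next came a cluster of the knockout-labelled library alone, chr2:158383152-158383252, with 85 IP and 46 input reads (log2 1.83, 95% interval 1.29 to 2.38, -log10 p 12.5). It had the highest -log10 p of the gene in that library, where it ranked 826 among all clusters. The cluster ended 7 bases before the strongest wild-type region began.

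The strongest region, chr2:158383260-158383402 in the last exon, is 143 bases long, its midpoint 7693 bases from the gene's start. In the knockout-labelled library the cluster over it, chr2:158383272-158383396, held 152 IP reads and 417 input reads, a log2 of -0.52 (95% interval -0.79 to -0.25). In the wild-type library it held 464 IP reads and 86 input reads, a log2 of 5.10 (4.76 to 5.44) at the ceiling of -log10 p, and ranked 121 among all clusters. The IP was thus 0.699 times its scaled input in the knockout-labelled library and 34.2 times its scaled input in the wild-type library. Intervals are exact binomial ones and cover counting error only.

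Past the strongest region the last exon was below input in both libraries, and above input again at its far end. Knockout-labelled reads there formed 1 long cluster, chr2:158385237-158385432, with at least 60 IP and 795 input reads (log2 -2.79). The wild-type library had 2 clusters inside it, of 15 IP and 148 input reads (log2 -0.64) and of 16 IP and 619 input reads (log2 -2.61). At the far end the knockout-labelled library had 40 IP and 16 input reads (log2 2.26, -log10 p 7.97) and, abutting, 41 IP and 23 input reads (log2 1.77, -log10 p 6.00). The wild-type cluster inside the first of them held 8 IP and 7 input reads (log2 2.86, -log10 p 3.51) and missed the log2 limit. These far-end clusters were above input in both libraries.

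The small nucleolar RNA genes inside Snhg11 were nearly empty. The knockout-labelled cluster in intron 3 lay within Gm25129, a small nucleolar RNA gene, with 8 IP and 43 input reads (log2 -1.49), and the wild-type library had 0 clusters there. Gm25187, the other one, had 0 regions in any table. The only intronic cluster of Snhg11 thus lay within a small nucleolar RNA gene, in 1 library and below its input. Whether its reads came from the small nucleolar RNA or from the intron around it was not tested.

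Both IPs were then set against each other through the authors' deposited table, whose log2 is wild-type IP over knockout-labelled IP, so a positive value is higher in wild type and lower in the knockout-labelled library. That table holds no reads; those given here were recovered from its scores. How it was made is not given in the sources used here, but 46799 of its 46862 regions are wild-type clusters, so its regions were chosen where the wild-type IP had reads, and sites covered in the knockout-labelled IP alone are not among them. A region was called higher in wild type when its -log10 p reached 3 and its log2 reached 1. Of the 8 Snhg11 regions, 1 passed in the authors' deposited table, where 3.39% of all regions did, and since the gene was chosen on this contrast nothing is read from that count. It also passed when 5 and 2 had to be reached, as did 0.393% of all regions of the authors' deposited table. The median log2 of the 8 regions was 0.29 in the authors' deposited table, beside 2.77 over all its regions, and 4 of the 8 were above 0, where 93.8% of all regions were.

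At the strongest region the reads recovered were 153 of the knockout-labelled IP, against 464 of the wild-type IP, and the log2 was 2.79 (95% interval 2.52 to 3.06) with the -log10 p at 400 in the authors' deposited table. Centred on the median of all regions, the log2 of the authors' deposited table was 0.02, below the limit of 1. Centred on regions with 20 or more wild-type reads outside microRNA genes it was 2.04. These reads give a -log10 p of 127, above the 88.2 that is the highest value listed below 400 in the authors' deposited table. Whether the true reads are a multiple of these was not settled. Ranked by -log10 p and then log2, it stood at 3 in the authors' deposited table. It was 1 of 40 regions at the ceiling, of which 11 lay outside microRNA genes.

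The other regions of Snhg11 had smaller values. Exon 3 had 10 knockout-labelled and 7 wild-type IP reads and exon 4 had 17 knockout-labelled and 7 wild-type IP reads, at log2 values of 0.67 and -0.09 in the authors' deposited table. At the near end of the last exon 19 knockout-labelled and 20 wild-type reads gave 1.26 (log2) and a -log10 p of 2.09 in the authors' deposited table, short of the limit. The next region, with 9 knockout-labelled and 7 wild-type reads, had a log2 of 0.83 there. Beyond the strongest region, every log2 of the authors' deposited table was below 0. Those 3 regions held 39, 58 and 28 knockout-labelled reads, against 15, 16 and 8 wild-type reads, for log2 values of -0.19, -0.67 and -0.62 in the authors' deposited table. The counting intervals of 6 of these 7 regions include 0, and that of the near-end region runs between 0.28 and 2.25.

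**Figure D2:**
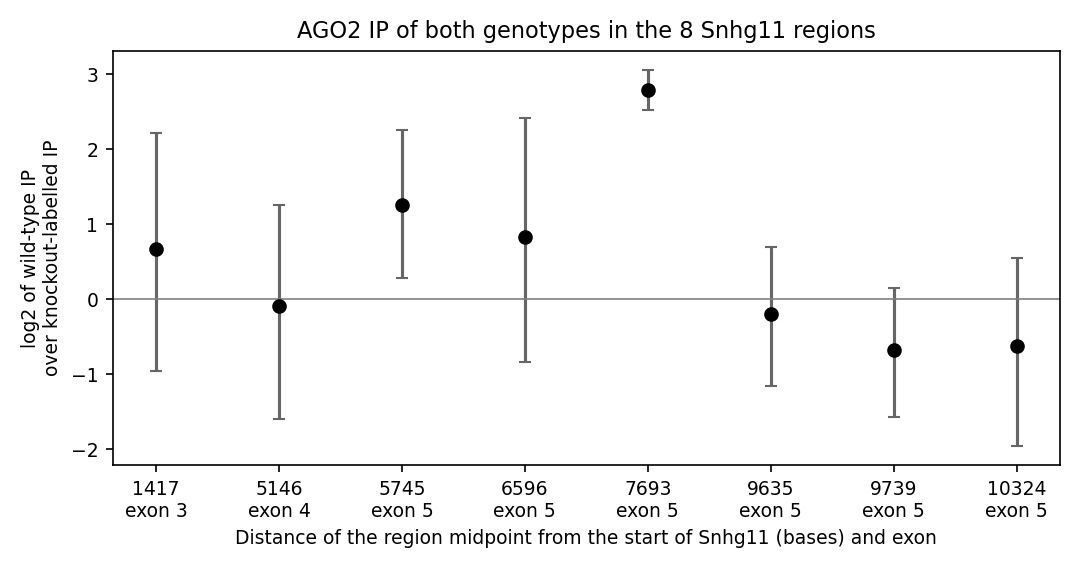
Log2 of wild-type IP over knockout-labelled IP (vertical axis) for the 8 Snhg11 regions of the authors' deposited table, in order along the gene, each named by the distance of its midpoint from the gene's start in bases and by its exon (horizontal axis). Bars are 95% intervals for counting error only. The region at 7693 bases stands at 2.79, while the others lie between -0.67 and 1.26.

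Summed over all 8 regions, the knockout-labelled IP held 333 reads and the wild-type IP 544, a scaled log2 of 1.90 (95% interval 1.70 to 2.10). The strongest region supplied 45.9% of the knockout-labelled reads and 85.3% of the wild-type reads. Without it, 180 knockout-labelled and 80 wild-type reads remained, a log2 of 0.02 (-0.38 to 0.41). Of the wild-type input reads in these regions, 86 of 947 (9.08%) lay in the strongest one. Over the 5 of these 7 regions whose reads are fixed by the deposited p, 83 knockout-labelled and 49 wild-type reads gave 0.43 (-0.11 to 0.95). Most of the summed difference thus lay in the strongest region. The sums leave out the knockout-labelled clusters that no region of the series table covers, such as those of 85 and 41 IP reads.

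The inputs differed at that site as well. Scaled to the wild-type IP total, reads per 100 bases came to 53.4 in the knockout-labelled IP and 76.3 in the knockout-labelled input, both over that library's own cluster. They came to 324 in the wild-type IP and 9.49 in the wild-type input over the wild-type region. The wild-type IP was the highest of the 4 libraries and the wild-type input the lowest, with both knockout-labelled libraries between them.

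**Figure D3:**
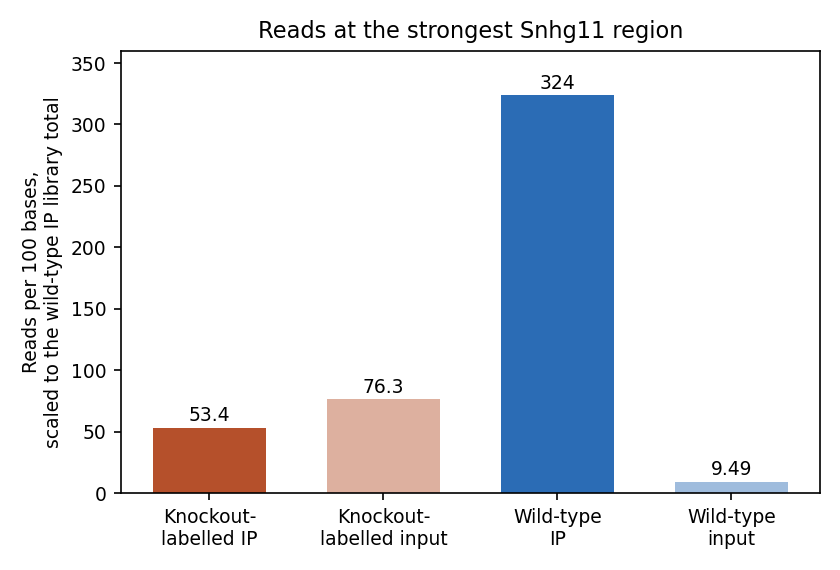
Reads per 100 bases at the strongest Snhg11 region, scaled to the wild-type IP library total (vertical axis, from 0), in the knockout-labelled IP and input and the wild-type IP and input; each bar is 1 library, so there is no error bar. The knockout-labelled IP (53.4) is below its input (76.3), and the wild-type IP (324) is above its input (9.49).

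As scaled totals over windows of unequal length, 125 bases for the knockout-labelled and 143 for the wild-type library, the knockout-labelled input was about 7.08 times the wild-type input there (log2 2.82). This log2 is the wild-type log2 over input, less that of wild-type IP over knockout-labelled IP, less the knockout-labelled log2 over input. It also carries the knockout-labelled IP reads of the wild-type window over those of the knockout-labelled cluster. These were 153 and 152 here, but 28 and 40 at the far end of the last exon. Values over other pairs are therefore not input ratios alone. The same quantity was computed over 419 overlapping pairs of clusters that had 20 or more wild-type IP reads and 5 or more reads of each input. Its median was 1.19, with quartiles of 0.78 and 1.61, and 8 pairs (1.91%), this one among them, reached 2.82. The wild-type log2 over input minus the knockout-labelled log2 over input was 5.61 at the site, against a median of 1.32 over the 419 pairs, and 1 pair, this one, reached it. The 5.61 at the site therefore holds a log2 of 2.79 between the IPs, higher in wild type, and 2.82 between the inputs, higher in the knockout-labelled library. Both parts widen the difference between the ratios over input. With 1 library of each kind, genotype cannot be told apart from library in either part.

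The sequence of the strongest region was examined next, since AGO2 clusters are placed by mapped reads. Of its 143 bases, 59 were C and 84 were T on the transcript strand, and 100% were marked as repeat in the RefSeq copy of mm10. Of its 114 windows of 30 bases, 17 occurred once in the 21 chromosomes, counting both strands. The median window occurred 49 times and the most frequent 3102 times. The overlapping knockout-labelled cluster was alike, with 15 of 96 windows found once. In the knockout-labelled cluster before it, which was 78.2% C or T, 43 of 72 windows were found once. Every window of the other Snhg11 regions was found once. Over all regions, the central 30 bases were found once in 93.9% of knockout-labelled clusters, 93.7% of wild-type clusters and 93.7% of regions of the series table. Per the labels' protocols, reads that mapped to a repeat database were removed before genome mapping. How reads with several genomic matches were placed is not given in the sources used here, and its part in the Snhg11 values was not tested.

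Other regions made of C and T were counted in the same way, with limits chosen after these data had been seen. Of the regions of 30 bases or more in the authors' deposited table, 482 were at least 95% C or T, with a median log2 of 2.77, and 28 of them (5.81%) passed the limits. All regions of 30 bases or more in the authors' deposited table had a median of 2.19, and 3.21% passed. Over input the order was the other way in the wild-type library, where 22.4% of such C or T clusters were enriched (median 3.25), against 28.6% of all clusters of that length (median 4.25). With 20 or more wild-type IP reads there were 9 such regions, Snhg11 included, and 6 of the 9 passed in the authors' deposited table. Of 561 regions of 30 bases or more with that many reads, 27.1% passed in the authors' deposited table, and their median log2 was 0.73. As this filter acts through the wild-type IP and the limits were set with Snhg11 in view, nothing is read from that share.

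Sites found by both libraries were counted next, with an overlap of 1 base or more. Of the 12 knockout-labelled Snhg11 clusters, 6 (50%, 95% interval 21.1 to 78.9) overlapped a wild-type cluster, and 7 of the 8 wild-type clusters (87.5%, 47.3 to 99.7) overlapped a knockout-labelled one. The intervals take clusters of the transcript as independent, which they are not, as some overlap the same cluster of the other library. Over all clusters the shares were 13.4% of the knockout-labelled and 25.9% of the wild-type clusters. Of the 2 enriched wild-type clusters of Snhg11, 0 overlapped an enriched knockout-labelled cluster, as the gene had none.

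Matches to microRNA seeds were sought because AGO2 is guided by them. A match was the 7 bases complementary to bases 2 to 8 of a mature microRNA of RefSeq, on the transcript strand, for 15 microRNA families. Of the Snhg11 regions, 0 of 28 held any such match, where the 8 regions of the series table are the 8 wild-type clusters again. The strongest region and the knockout-labelled cluster over it could hold none. They have only C and T, and each of the matches searched has an A or a G. The exon 4 region of 4 bases is shorter than a match. Across all wild-type clusters the share with a match to a single family was between 0.0619% for miR-99/100 (TACGGGT) and 1.89% for let-7 (CTACCTC). A match to a given family in any 1 of these regions would thus have been infrequent. The share of all clusters with a match to any of the 15 families is higher and was not counted. The last exon did hold 5 matches outside the regions, 1 each for miR-9, miR-26, miR-30, miR-135 and miR-138. The nearest to a region was that of miR-30, 64 bases from a knockout-labelled cluster. The miR-9 match, for a microRNA abundant in the nervous system, lay 228 bases before a knockout-labelled cluster. It is shown with the microRNA to which it is complementary, the match and the seed in capitals.
miR-9 match in the last exon, chr2:158381076-158381098: acttggggACCAAAGttagagac
mmu-miR-9-5p: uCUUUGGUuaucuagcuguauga

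No seed was thus found under the AGO2 reads of Snhg11, which says only that these letters are not in these windows. The longest run that the strongest region shared with any of 1674 mature microRNAs was 16 bases on the same strand, with mmu-miR-1903, and 12 bases on the complementary strand, with mmu-miR-703. Predicted G-quadruplexes, 4 runs of 3 or more G with loops of 1 to 7 bases, were found within 50 bases of 0 Snhg11 regions. The run of 13 G in the near-end wild-type cluster is too short for that pattern.

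The genes most like Snhg11 were named by the distance between 3 log2 values, knockout-labelled IP over input, wild-type IP over input and wild-type IP over knockout-labelled IP. Each of 497 other genes was taken at the exonic region with the most wild-type IP reads, of at least 20, that overlapped a knockout-labelled cluster. Many of the 497 are microRNA genes, and the medians given here and below include them. The values rest on the same 4 libraries, and the distance is a description. Nearest was St8sia1, a sialyltransferase of ganglioside synthesis, at 0.32, against a median distance of 6.40. Its 3' untranslated region had a log2 of -0.45 over input in the knockout-labelled library and 4.83 in the wild-type library. St8sia1 had 10 knockout-labelled and 27 wild-type IP reads there (log2 2.62 in the authors' deposited table).

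Rc3h2, an RNA-binding ubiquitin ligase, followed at a distance of 1.03. Its log2 over input was -0.72 in the knockout-labelled library and 4.54 in the wild-type library, and it had 13 knockout-labelled and 22 wild-type IP reads (log2 1.95 in the authors' deposited table). Then came Tox2, a DNA-binding protein, at 1.80, Enc1, an actin-binding protein of neurons, at 1.99, and Prdm8, a transcriptional regulator, at 2.00. All 5 regions were in 3' untranslated regions. Of these regions, that of St8sia1 was 97.3% C or T, that of Rc3h2 100% and that of Tox2 98.5%, while Enc1 (57%) and Prdm8 (57.5%) were mixed. The 3 nearest genes had nearly plain C and T there, as Snhg11 did. By the 2 log2 values over input alone, St8sia1 and Rc3h2 were again the 2 nearest, but Tox2 stood at 6, and Prdm8, Ywhae (44.4% C or T) and Marcks (32%) came before it.

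**Figure D4:**
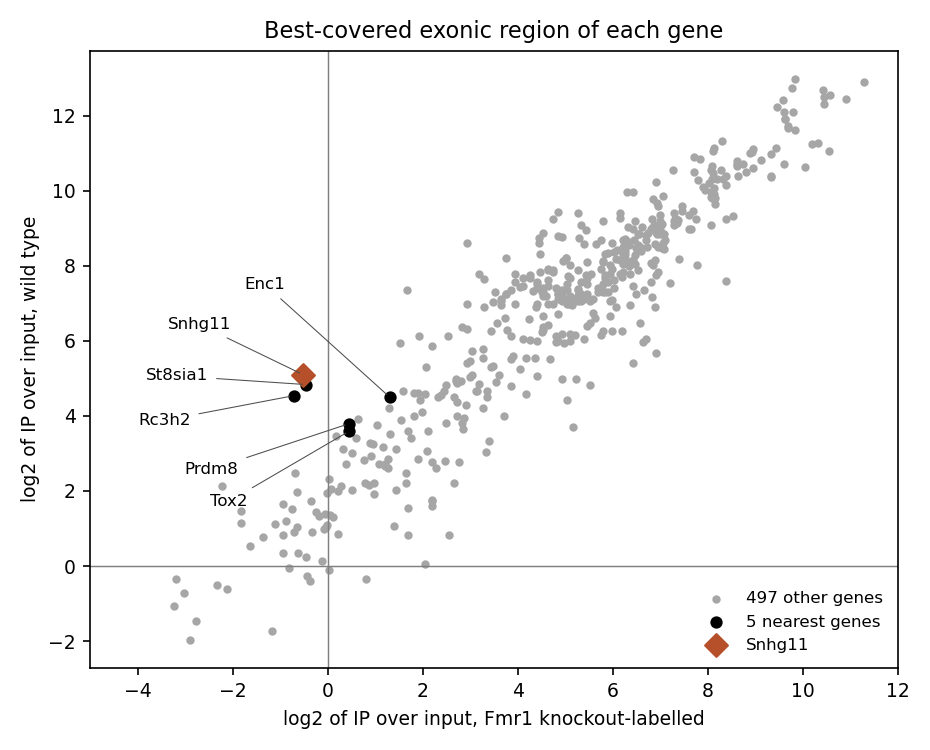
Log2 of IP over input in the Fmr1 knockout-labelled library (horizontal axis) and in the wild-type library (vertical axis) for the exonic region with the most wild-type IP reads of each gene. Grey points are 497 other genes, black points the 5 nearest to Snhg11, and the diamond is Snhg11, at -0.52 and 5.10, with St8sia1 (-0.45 and 4.83) and Rc3h2 (-0.72 and 4.54) beside it.

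Over these genes, many of them microRNA genes, the median log2 over input was 5.03 in the knockout-labelled library and 7.25 in the wild-type library. Snhg11 was below both medians. It was 1 of 41 genes below 0 in the knockout-labelled library, beside St8sia1 and Rc3h2, whose wild-type values were close to its own. Of the 497 other genes, 18 had a log2 at or above that of Snhg11 in the authors' deposited table.

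Snhg11 was last set beside other non-coding RNAs, each taken at its exonic region with the most wild-type IP reads, including any region over a small RNA gene inside it. Of 19 other small nucleolar RNA host genes, 12 had an exonic region in the authors' deposited table. There 1 of the 12, Rian, had a region past the limits, and 1 of 12 best-covered regions was above 0, with a median log2 of -1.17. In the authors' deposited table Gas5, a growth-arrest RNA, had 338 knockout-labelled and 66 wild-type reads (log2 -1.17). There, in the authors' deposited table, Snhg1 had 212 knockout-labelled and 34 wild-type reads (log2 -1.45), and Snhg12 had 207 knockout-labelled and 33 wild-type reads (log2 -1.46). Over all 7343 genes with an exonic region, 744 had a region past the limits in the authors' deposited table, 6934 had a best-covered region above 0, and the median was 2.06. The best-covered regions of the other host genes thus lay mostly on the other side of 0, while that of Snhg11 was at 2.79 in the authors' deposited table.

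Of 15 long non-coding RNAs of brain, 9 had an exonic region and 5 had a region past the limits in the authors' deposited table, with a median log2 of 1.32 over the best-covered regions. Rmst, a regulator of neuron formation, had 728 knockout-labelled and 797 wild-type reads (log2 1.32) in the authors' deposited table. That region had 1 wild-type input read and a log2 over input of 12.30 in the wild-type library. The microRNA gene Mir135a-2 had the same values of 12.30 and 1.32. The Rmst reads therefore cannot be taken as those of the long RNA. Malat1, a nuclear RNA, had 1100 knockout-labelled and 315 wild-type reads (log2 -0.62) in the authors' deposited table. Meg3, an imprinted RNA, had 244 knockout-labelled and 279 wild-type reads (log2 1.38) there. The Meg3 region had 8 wild-type input reads and a log2 over input of 7.79 in the wild-type library. Whether its reads are those of the long RNA was not tested. The values of Rmst, Malat1 and Meg3 were nearer to 0 than that of the strongest Snhg11 region, from which nothing is read, as Snhg11 was chosen for that region. Sox2ot, named after its values were seen, had 1 knockout-labelled and 5 wild-type reads (log2 3.51 in the authors' deposited table).

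The genes next to Snhg11 were covered thinly. Snhg17, another small nucleolar RNA host gene, lies 14058 bases before it on the minus strand. Its highest log2 over input was 1.75 in the knockout-labelled library (21 IP and 12 input reads) and 1.29 in the wild-type library (5 IP and 13 input reads), and its highest log2 in the authors' deposited table was -1.01. Gm14201, a pseudogene 16582 bases after Snhg11, had 0 regions. Neither neighbour had a region above 0 in the authors' deposited table.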

How the data were processed

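AGO2 eCLIP libraries of whole brain at postnatal day 0 were used, 1 IP and 1 input per genotype; depth enters only through ratios recovered from the scores. Per the labels' protocols and the submitters' processing notes, reads were trimmed with cutadapt 1.15, repeat reads were removed, the rest was mapped to mm10 with STAR 2.6.0c, duplicates were removed with UMI tools (version given as 5.2), and clusters were called with CLIPper 1.4. Per cluster, each deposited file holds the authors' -log10 p (with a ceiling of 400) and the authors' log2 ratio of reads, scaled to library totals. The inputs have no files of their own here.

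Reads were recovered from the deposited log2 values, which lay within 1e-09 of a constant plus the log2 of a whole-number ratio (denominator at most 5000) in 99.99% of regions of each table. The deposited -log10 p then fixed the reads as an exact binomial or, at 5 or more reads, a Yates chi-square. Wild-type reads fixed in both tables were equal in 99.98% of 42616 regions. The recovery was also run on reads simulated with the same formulas, which checks the code and cannot show that the authors' scores follow them. Regions took the GENCODE M21 annotation at their midpoint. The build was checked on start codons, of which 27887 of 27907 read ATG. Intervals are exact 95% binomial ones (Clopper-Pearson, Python 3.11, scipy). For reads they cover counting error only, and for shares of clusters they take clusters as independent. PCR duplicates were removed by the authors. With 1 IP per genotype no test across genotypes was possible. Genes named were Snhg11, genes inside or next to it, the 3 members of each list with the most wild-type IP reads in 1 exonic region, the 5 nearest genes, and Fmr1. A few others, such as Sox2ot and Mir135a-2, were named after their values were seen. The gene, lists and limits were chosen with earlier results of these data known. Alternatives covered the limits, centring, overlap rule, seed definition and likeness. The mature sequence of miR-124, 1 of 16 families planned, was not used here.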

Additional observations from a re-analysis of the deposited data

Results flagged for a closer look

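In 3 regions of Snhg11 the IP was below its input in the knockout-labelled library and above it in the wild-type library. The wild-type log2 over input minus the knockout-labelled log2 over input was 5.61 at the strongest region of the last exon, 1.98 in exon 4 and 1.86 in exon 3. None of these differences was tested, since each library is a single one. Of these regions, those in exons 3 and 4 had 7 wild-type IP reads each, and the counting interval of their wild-type log2 includes 0. Over the 419 pairs of clusters described above the median of the same quantity was 1.32, and the values in exons 3 and 4 lie between its quartiles of 0.58 and 2.07.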

How the results depend on the processing

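Of 27 alternative values for 17 results, 16 were close to the reported one, 11 moved and 0 reversed. Places of the regions, seed matches (0 throughout), the overlap rule and 0.5 added to both reads changed nothing beyond counting error. With stricter limits (-log10 p of 5, log2 of 4) enriched wild-type clusters numbered 1 instead of 2, and with enriched clusters alone the sites shared by the libraries numbered 0 of either list. Centred on the median of all clusters, the log2 at the strongest site became -2.78 in the knockout-labelled library and 0.85 in the wild-type library. The log2 of 2.79 between the IPs in the authors' deposited table became 2.04 when centred on 670 regions with 20 or more wild-type reads outside microRNA genes and 0.02 when centred on all regions, many of which hold few reads. Summed reads gave 1.90 over all Snhg11 regions, 0.02 without the strongest, and, added after seeing the data, 0.43 over the others whose reads the p fixes. Likeness over 2 log2 values kept 3 of the 5 nearest genes, and Tox2 and Enc1 were no longer among them. Regions of C and T past the limits numbered 6 with 90% C or T or 50 bases, also added after seeing the data. Intronic regions could not be tried for the IP comparison, as the series table has none in Snhg11. No paired analysis was possible because each genotype has 1 IP and the results come from no test across samples. Depth limits all regions but the strongest: 7 to 20 wild-type IP reads each.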
